A study of Mus musculus with 12 samples.

Results

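The mRNA levels of 10 genes for inhibitory and accessory mast cell receptors, and for the phosphatases that such receptors recruit, were read from a table of read counts per gene in cultured mouse mast cells. The genes were *Fcgr2b* (NCBI Gene 14130), *Fcgr3* (14131), *Pirb* (18733), *Lilrb4a* (14728), *Cd300a* (217303), *Siglecf* (233186), *Milr1* (380732), *Cd200r3* (74603), *Inpp5d* (16331) and *Ptpn6* (15170). They were taken as the rows that carry these symbols, by the known role of their products. No measured value entered this rule, but the genes were chosen with earlier results of these data known. All 10 were found among the 16234 genes of the table, and all 10 passed the filter on low counts, which left 12208 genes to test. The cells were bone marrow-derived mast cells (BMMCs), grown for 4 to 8 weeks with IL-3 and SCF from marrow of young mice of both sexes on the C57BL/6N background, until over 80% of the cells carried CD117 and FcεRI on their surface. The libraries were labelled for *Elk4* as WT (wild type), HZ (heterozygous) and KO (knockout). The gene encodes an ETS-family transcription factor. The knockout was a conventional one, so it was not limited to mast cells. Stimulated cells were loaded overnight with 0.5 µg/ml anti-DNP IgE and then received 100 ng/ml DNP-HSA, the antigen that crosslinks this IgE on FcεRI, for 1 h. Unstimulated libraries carry the label untreated, and whether their cells also received IgE is not given in the sources used here. Each of the 6 groups held 2 libraries, and no label says whether these came from separate mice or cultures, so the p-values measure the spread between these samples, which may be technical.

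FcεRI signals through tyrosine motifs called ITAMs, which the kinase *Lyn* phosphorylates when antigen crosslinks the receptor. Inhibitory receptors carry a related motif, the ITIM, which in its phosphorylated form binds the protein phosphatase SHP-1, encoded by *Ptpn6*, or the lipid phosphatase SHIP-1, encoded by *Inpp5d*, and these oppose the ITAM signal. FcγRIIB, encoded by *Fcgr2b*, is the textbook case on mast cells, where binding it together with FcεRI restrains degranulation. The accessory receptors among the 10 work the other way, since FcγRIII (*Fcgr3*) signals through the ITAM-bearing FcR γ chain and CD200R3 (*Cd200r3*) through the adaptor DAP12.

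Library totals lay between 29697958 and 35531667 counts. TMM scaling, which sets the middle of the gene distribution level between libraries, gave factors between 1.08 and 1.12 without antigen and between 0.902 and 0.924 with it, so changes on stimulation depend on the scaling. Values are under TMM unless library totals are named. *Elk4* had 2253 to 3238 counts without antigen and 1867 to 2322 counts with it, so it was counted in every library labelled KO. Scaled to CPM, both unstimulated KO libraries (69.7 and 63.5) were below WT (73.2 and 78.3) and HZ (93.2 and 86.0), with a log2 difference from WT of -0.19 (edgeR adjusted p = 0.00872). After antigen KO (67.1 and 68.5) overlapped WT (78.2 and 67.0), at -0.098 (edgeR adjusted p = 0.208). Counts summed over a gene do not reveal the loss of part of it, and WT, HZ and KO are therefore used as names of labels throughout. The paper reports that western blotting of such cells, for each genotype, bore out the deletion of *Elk4*. Of 14 mast cell markers, 13 were in the table and tested, with a summed level of 49290 to 60350 CPM, which are counts scaled to the same library total. The defining markers of neutrophils (*Ly6g*, *S100a8*, *S100a9*), macrophages (*Mrc1*, *C1qa*) and B or T cells were at or near 0. Other genes of the macrophage and monocyte list were present, led by *Lyz2* at 131 to 432 counts and *Adgre1* at 98 to 209. That list summed to 8.18 to 9.49 CPM in unstimulated WT and to 15.1 to 17.7 CPM in unstimulated HZ and KO. The basophil list, carried by *Gzmb*, *Ifitm1* and *Cd69*, summed to 3296 to 3314 CPM in unstimulated WT and to 4233 to 4690 CPM in unstimulated HZ and KO. These 3 genes did not move together. In unstimulated WT, HZ and KO, mean *Gzmb* was 1438, 2507 and 2452 CPM, *Ifitm1* 1374, 1872 and 1410, and *Cd69* 487, 198 and 428. The other genes of that list were low, with *Mcpt8* at 151 to 362 counts, *Prss34* at 12 to 56 and *Itga2* at 0 to 16. The neutrophil list, carried by the protease gene *Ctsg*, summed to 305.4 to 338.2 CPM in WT and to 20.2 to 54.1 CPM in HZ and KO. The part of these in the results was not tested. In bulk libraries, fewer cells of a type and less RNA per cell cannot be told apart.

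Per unit of gene length, the 10 genes spanned a wide range of levels. *Lilrb4a*, an ITIM receptor of the leukocyte immunoglobulin-like family, had a mean of 2307 FPKM (fragments scaled by gene length and by library total) over the 12 libraries, with a range of 1910.3 to 2647, and ranked 11 of 16234 genes in unstimulated WT. For comparison, the ligand-binding chain of the IgE receptor, *Fcer1a*, had a mean of 4291 FPKM in unstimulated WT. The lipid phosphatase gene *Inpp5d* followed with a mean of 217 FPKM, then the ITIM receptor gene *Pirb* with 125, *Ptpn6* with 99.1, *Cd300a* with 96.1 and *Cd200r3* with 74.0. The ranges of *Ptpn6* (78.5 to 115) and *Cd300a* (67.8 to 128) overlapped over nearly their whole length, so this order does not separate them. The Fc receptors were lower, with 48.0 FPKM for *Fcgr2b* and 31.0 for *Fcgr3*. *Milr1*, which encodes the ITIM receptor Allergin-1, had 11.2 FPKM. *Siglecf*, which encodes an inhibitory receptor for sialic acid best known from eosinophils, was far lower, with a mean of 0.507 FPKM, and ranked 10723 of 16234 genes in unstimulated WT. The lowest and the highest group means of the other genes were at most 1.81-fold apart in CPM, while those of *Siglecf* differed 28.7-fold at 3 to 106 counts per library.

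**Figure D1:**
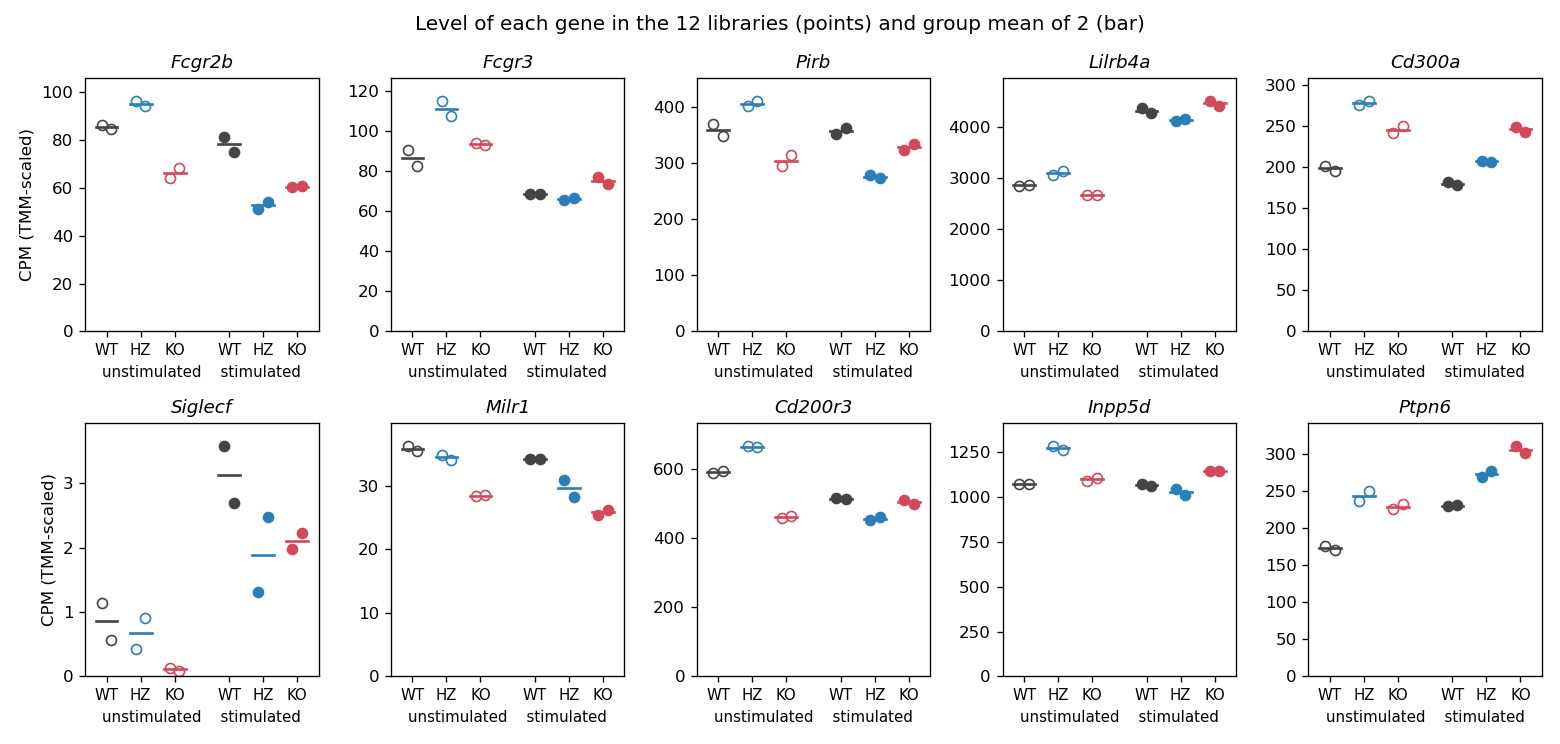
Level of each of the 10 genes in CPM scaled by TMM (vertical axis, starting at 0 in each panel) in the 12 libraries, with open points for unstimulated and filled points for stimulated libraries and a bar at the mean of the 2 libraries of a group. *Lilrb4a* lay between 4119 and 4494 CPM in stimulated and between 2658 and 3137 CPM in unstimulated libraries, and in unstimulated libraries HZ stood above WT and KO in 8 of the 10 panels.

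Bases before the start site of 9 of the 10 genes were held by the RefSeq promoter table of build GRCm38.p6, which is an older build than the GRCm39 named in the submitters' processing notes. Since ELK4 is an ETS protein, the 250 bases before each start were searched on both strands for the ETS core GGAAGT and for CCGGAAGT, a longer form that holds the core. The core was present before 5 of 9 genes (*Siglecf*, *Fcgr2b*, *Pirb*, *Inpp5d* and *Ptpn6*), against 19.7% of 32851 promoters of the same length, and the longer form before 0 of 9, against 2.88%. The GATA motif AGATAA, which GATA factors of the mast cell lineage bind, was found before *Cd200r3* alone (9.99% of all promoters). The E-box CATGTG was found before *Siglecf* and *Pirb* (12.3%), and the E-box CACGTG (6.02%) and the AP-1 motif TGACTCA (4.46%) before none of the 9. Shown are 4 of the 5 genes that hold the core, those with the widest spans between group means, on the strand of the gene, with the core or its reverse complement ACTTCC and the E-box CATGTG or its reverse complement CACATG in capitals. They lie at chr1:170976072-170976321 (minus strand) for *Fcgr2b*, chr7:3720383-3720632 (minus strand) for *Pirb*, chr6:124738710-124738959 (minus strand) for *Ptpn6* and chr7:43351091-43351340 (plus strand) for *Siglecf*. A match is a run of letters and not a binding site.
Fcgr2b: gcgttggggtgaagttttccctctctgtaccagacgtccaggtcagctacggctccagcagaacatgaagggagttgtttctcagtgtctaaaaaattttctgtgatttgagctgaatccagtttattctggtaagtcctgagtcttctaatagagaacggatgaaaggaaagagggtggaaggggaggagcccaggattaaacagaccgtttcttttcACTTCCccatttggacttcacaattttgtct
Pirb: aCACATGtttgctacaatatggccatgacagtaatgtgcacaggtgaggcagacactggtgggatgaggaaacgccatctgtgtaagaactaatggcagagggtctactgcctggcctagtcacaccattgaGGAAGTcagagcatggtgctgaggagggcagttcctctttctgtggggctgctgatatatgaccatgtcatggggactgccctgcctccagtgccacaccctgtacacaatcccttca
Ptpn6: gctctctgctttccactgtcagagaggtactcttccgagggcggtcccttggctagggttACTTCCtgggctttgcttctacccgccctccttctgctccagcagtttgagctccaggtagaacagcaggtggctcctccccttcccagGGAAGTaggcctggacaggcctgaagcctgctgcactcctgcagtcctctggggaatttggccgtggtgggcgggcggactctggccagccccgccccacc
Siglecf: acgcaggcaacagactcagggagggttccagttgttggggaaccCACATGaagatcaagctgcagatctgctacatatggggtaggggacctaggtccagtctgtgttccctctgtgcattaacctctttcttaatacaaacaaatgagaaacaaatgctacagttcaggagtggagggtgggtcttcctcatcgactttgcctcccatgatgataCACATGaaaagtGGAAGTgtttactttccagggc

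The stimulated and unstimulated libraries were compared within each genotype label to find which of these genes differed with stimulation. Since it is not given whether unstimulated cells received IgE, effects of overnight IgE and of 1 h of antigen cannot be told apart. Before antigen, after antigen and response to antigen are therefore used here as names of the unstimulated and stimulated states and of the difference between them. In WT BMMCs, mRNA of *Lilrb4a*, *Ptpn6* and *Siglecf* rose, and that of *Fcgr3*, *Cd200r3* and *Cd300a* fell. In libraries labelled HZ the same 3 genes rose and the other 7 fell. In libraries labelled KO, *Lilrb4a*, *Ptpn6*, *Siglecf*, *Cd200r3*, *Pirb* and *Inpp5d* rose and *Fcgr3* fell. Of the 10 genes, 6 passed in WT (3 higher and 3 lower, the threshold being a Benjamini-Hochberg adjusted p of less than 0.05 from the quasi-likelihood test of edgeR), where 45.3% of all genes tested passed, 22.4% higher and 22.9% lower. In HZ, 10 of 10 passed (3 higher and 7 lower), where 64.4% of all genes passed, 32.9% higher and 31.6% lower. In KO, 7 of 10 passed (6 higher and 1 lower), where 40.8% of all genes passed, 20.4% higher and 20.5% lower. The median log2 fold change of the 10 genes was -0.036 in WT, -0.37 in HZ and 0.087 in KO, beside medians over all genes tested of -0.013, -0.0048 and -0.0068. With a limit of 2-fold added, only *Siglecf* passed in each of the 3 comparisons, as did 6.77% of all genes in WT (3.71% higher and 3.06% lower), 14.3% in HZ (7.02% and 7.28%) and 6.61% in KO (3.73% and 2.88%).

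The scaling bore on these directions. Scaling by library totals in place of TMM moved the log2 fold change of all genes by -0.308 in WT, -0.232 in HZ and -0.289 in KO. The share of higher genes among all genes that passed went from 49.4% to 10.2% in WT, from 51% to 29.3% in HZ and from 49.9% to 10.5% in KO. Relative to library totals, 67.5% of all genes passed in WT, 68.4% in HZ and 66.8% in KO. Of the 10 genes, all passed in WT and 3 of them were higher. In HZ 9 of the 10 passed (2 higher and 7 lower), and the value of *Ptpn6* there was -0.066 (adjusted p = 0.0856). In KO all 10 passed, 3 higher and 7 lower in place of 6 higher and 1 lower. In KO *Cd200r3* fell by 0.16, *Pirb* by 0.18 and *Inpp5d* by 0.23. *Lilrb4a* rose under library totals by 0.29 in WT, 0.18 in HZ and 0.45 in KO, and *Fcgr3* fell by 0.64, 0.98 and 0.60. *Lilrb4a* and *Siglecf* in all 3 labels, and *Ptpn6* in WT and KO, were higher under either scaling, and *Fcgr3* was lower in all 3 labels under either scaling.

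**Figure D2:**
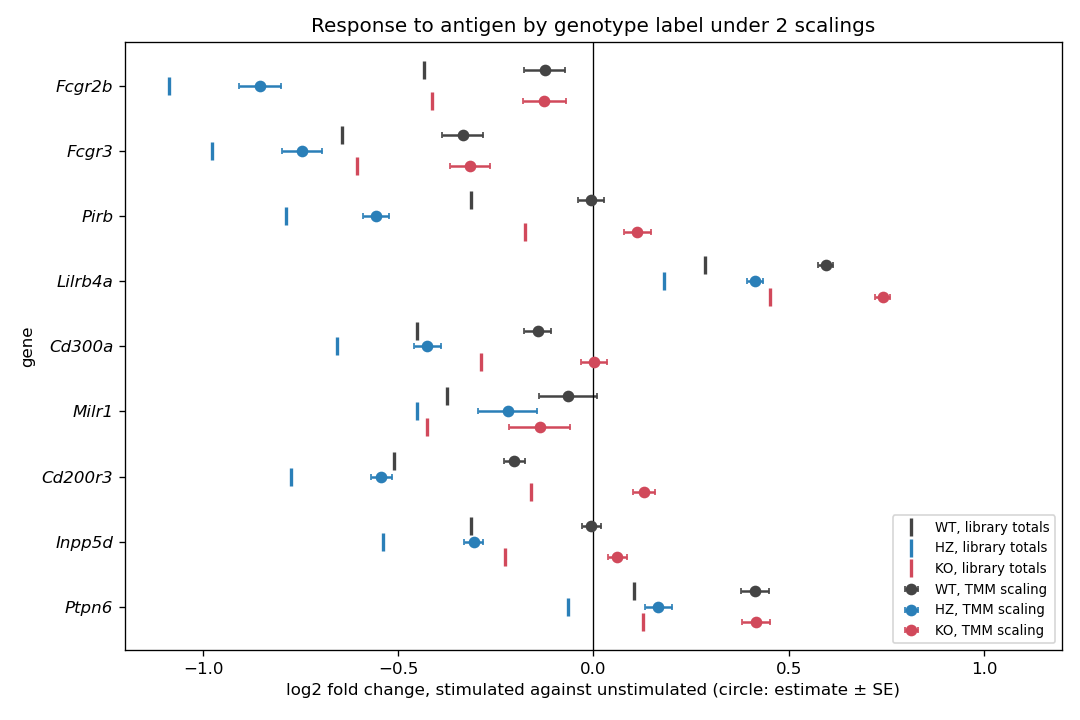
Log2 fold change of stimulated against unstimulated libraries (horizontal axis) for the 9 genes other than *Siglecf*, with circles and bars for the estimate ± standard error under TMM scaling and upright ticks for the estimate under library totals. Under TMM the HZ circle is the lowest of the 3 for each gene, at -0.85 for *Fcgr2b* and -0.56 for *Pirb*, and the ticks stand to the left of the circles by 0.23 to 0.31.

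The Fc receptor genes responded to antigen differently by label. *Fcgr2b* had 86.4 and 84.5 CPM in unstimulated WT, 96.3 and 94.4 in HZ, with 64.1 and 68.2 in KO. After stimulation it had 81.5 and 75.1 CPM in WT, 51.1 and 54.4 in HZ, with 60.3 and 60.9 in KO. HZ libraries were thus the highest of the 3 labels before antigen and the lowest after it, with no overlap between labels in either state. Lack of overlap between 2 groups was common, since 59.1% to 80.2% of all 12208 genes tested showed it, depending on the comparison. This holds for the other genes below as well. The log2 fold change of *Fcgr2b* on stimulation was -0.85 ± 0.054 (SE) in HZ (edgeR adjusted p = 1.06e-18). It was -0.13 ± 0.053 in WT (edgeR adjusted p = 0.0501) and -0.13 ± 0.055 in KO (edgeR adjusted p = 0.0638), both above the threshold of 0.05 under TMM and below it under library totals. *Fcgr3*, the activating Fcγ receptor, had 90.7 and 82.7 CPM in unstimulated WT, 115 and 107.5 in HZ, with 94.1 and 93.0 in KO. It had 68.6 and 68.8 CPM in stimulated WT, 65.8 and 66.9 in HZ, with 76.9 and 73.5 in KO. Every stimulated library was below every unstimulated one, and *Fcgr3* fell on stimulation by 0.34 in WT, 0.75 in HZ and 0.32 in KO on the log2 scale (edgeR adjusted p = 5.35e-07, 1.93e-17 and 1.61e-06).

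*Fcgr2b* was lower in KO than in WT in both states, with a log2 difference of -0.37 ± 0.053 in unstimulated (edgeR adjusted p = 9.48e-08) and -0.37 ± 0.055 in stimulated libraries (edgeR adjusted p = 2.56e-07). For *Fcgr3* these differences were 0.11 ± 0.05 (edgeR adjusted p = 0.0709) and 0.13 ± 0.053 (edgeR adjusted p = 0.0475), and the latter lost the threshold when any 1 library of these 2 groups was left out (adjusted p of 0.0552 to 0.282). Both genes were higher in unstimulated HZ than in WT (0.16 and 0.36) and than in KO. Stimulated KO was above HZ by 0.20 ± 0.057 for *Fcgr2b* and 0.18 ± 0.053 for *Fcgr3* (edgeR adjusted p = 0.00578 and 0.00862). With 1 library left out these differences ranged from 0.156 to 0.244 and from 0.147 to 0.212. That of *Fcgr3* did not pass in every setting with all libraries kept. The ratio of *Fcgr2b* to *Fcgr3*, taken from FPKM within each library, does not depend on the scaling between libraries. It was 1.69 and 1.82 in unstimulated WT, 1.49 and 1.56 in HZ, with 1.21 and 1.305 in KO. In stimulated libraries it was 2.11 and 1.94 in WT, 1.38 and 1.45 in HZ, with 1.395 and 1.475 in KO. All 4 WT libraries stood above all 8 libraries labelled HZ or KO. The group means were 1.76 ± 0.0884 (SD, n = 2) in unstimulated WT and 1.26 ± 0.0672 in KO, and 2.03 ± 0.122 and 1.44 ± 0.0566 after stimulation. The ratio was not tested. The 2 genes are close relatives, and how reads that fit both were counted is not given in the sources used here.

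**Figure D3:**
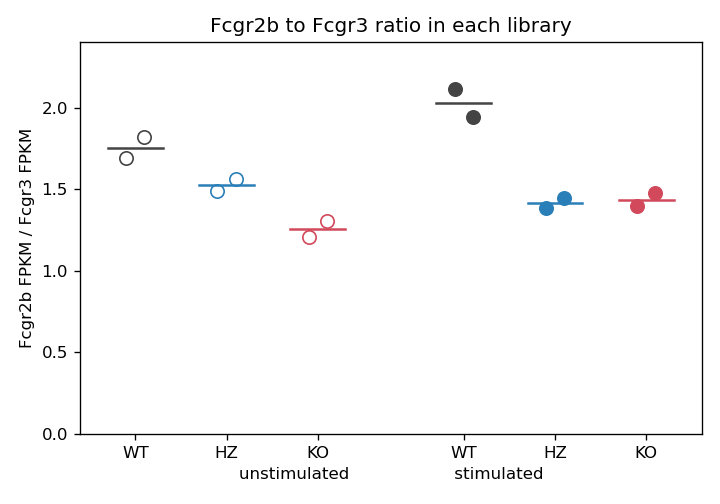
Ratio of *Fcgr2b* to *Fcgr3* (vertical axis, FPKM over FPKM, starting at 0) in each of the 12 libraries, with open points for unstimulated and filled points for stimulated libraries and a bar at the mean of 2. The WT libraries lie between 1.69 and 2.11 and those labelled HZ or KO between 1.21 and 1.56.

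*Pirb*, an ITIM receptor for MHC class I, also stood highest in HZ before antigen and lowest in HZ after it. It had 369 and 349 CPM in unstimulated WT, 402.5 and 410.1 in HZ, with 295 and 314 in KO. After antigen it had 352 and 363 CPM in WT, 279.5 and 273 in HZ, with 324 and 334 in KO. In WT the stimulated and unstimulated libraries overlapped, in HZ the stimulated libraries were far below the unstimulated ones, and in KO they were slightly above. The log2 fold change on stimulation was -0.0062 ± 0.034 (SE) in WT (edgeR adjusted p = 0.899), -0.56 ± 0.034 in HZ (edgeR adjusted p = 1.83e-19) and 0.11 ± 0.034 in KO (edgeR adjusted p = 0.00595). Under library totals the value in WT was -0.31 (adjusted p = 2.5e-11). The rise in KO lost the threshold without unstimulated KO replicate 1 (adjusted p = 0.223) or stimulated KO replicate 2 (adjusted p = 0.117). Against WT, *Pirb* in KO was lower by a log2 difference of -0.24 ± 0.033 before stimulation (edgeR adjusted p = 5.98e-08) and -0.12 ± 0.034 after it (edgeR adjusted p = 0.00357). The latter lost the threshold without stimulated WT replicate 2 (adjusted p = 0.0755) or KO replicate 1 (adjusted p = 0.086). The activating relatives *Pira1* and *Pira2* and others share long stretches with *Pirb*, so the split of reads among them is uncertain. The count of *Pira2* was below WT in stimulated KO by a log2 difference of -1.69 ± 0.27 (edgeR adjusted p = 8.11e-07). It was also lower in unstimulated KO, by -0.99, and in stimulated HZ, by -1.38 (edgeR adjusted p = 0.000881 and 1.94e-05). The 2 stimulated WT libraries lay far apart for *Pira2*, with a mean of 7.05 ± 3.84 CPM (SD, n = 2).

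*Lilrb4a* gave the most precise change of the set. Its levels were 2840.3 and 2864 CPM in unstimulated WT, 3064 and 3137 in HZ, with 2671 and 2658 in KO. They were 4358 and 4259 CPM in stimulated WT, 4119 and 4141 in HZ, with 4494 and 4413 in KO. Every stimulated library was above every unstimulated one, and KO went from the lowest label before antigen to the highest after it. The log2 fold change was 0.60 ± 0.02 in WT, 0.41 ± 0.02 in HZ and 0.74 ± 0.02 in KO (edgeR adjusted p = 1.08e-29, 1.69e-23 and 1.06e-33). The difference between stimulated KO and WT, 0.048 ± 0.02 (edgeR adjusted p = 0.0469), lost the threshold without stimulated WT replicate 2, KO replicate 1 or KO replicate 2 (adjusted p of 0.0616 to 0.322) and under library totals (adjusted p = 0.0541). Stimulated HZ differed from WT by -0.061 (edgeR adjusted p = 0.0123), which passed neither under library totals (adjusted p = 0.16) nor without stimulated WT replicate 1 (adjusted p = 0.193) or HZ replicate 1 (adjusted p = 0.0826). The neighbouring paralog *Lilr4b*, whose product lacks the ITIM, rose by 0.49 in WT, 0.56 in HZ and 0.61 in KO on the log2 scale (edgeR adjusted p = 7.07e-19, 1.69e-21 and 1.29e-22). Reads of the 2 paralogs may be split unevenly between them.

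*Cd300a* encodes an ITIM receptor for phospholipids exposed on dying cells. It had 201 and 196 CPM in unstimulated WT, 275 and 279.7 in HZ, with 241 and 249.7 in KO. It had 181 and 178 CPM in stimulated WT, 207 and 206 in HZ, with 249 and 243 in KO. WT libraries were the lowest in both states, and KO replaced HZ as the highest after antigen. KO was above WT by 0.31 ± 0.034 before stimulation (edgeR adjusted p = 1.51e-10) and 0.45 ± 0.035 after it (edgeR adjusted p = 2.54e-15), and HZ by 0.49 ± 0.034 and 0.20 ± 0.035 (edgeR adjusted p = 5.93e-17 and 6.02e-06). On stimulation *Cd300a* fell by 0.14 in WT (edgeR adjusted p = 0.000682) and by 0.43 in HZ (edgeR adjusted p = 3.27e-15), while the log2 value in KO was 0.0018 (edgeR adjusted p = 0.976) under TMM and -0.29 under library totals.

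*Milr1*, whose product Allergin-1 restrains IgE-driven anaphylaxis, was lower in KO than in WT in both states. It had 36.2 and 35.4 CPM in unstimulated WT, 34.8 and 34.1 in HZ, with 28.3 and 28.5 in KO. After antigen it had 34.2 and 34.1 CPM in WT, 30.9 and 28.2 in HZ, with 25.3 and 26.2 in KO. Both KO libraries were the lowest in each state, and stimulated HZ lay between the other labels. The log2 difference of KO from WT was -0.33 ± 0.074 before stimulation (edgeR adjusted p = 0.000225) and -0.41 ± 0.078 after it (edgeR adjusted p = 2.84e-05), and both held the threshold with any 1 library left out. Stimulated HZ differed from WT by -0.21 ± 0.076 (edgeR adjusted p = 0.0288), which passed neither under library totals (adjusted p = 0.0587) nor without stimulated HZ replicate 2 or either stimulated WT replicate (adjusted p of 0.0963 to 0.276). On stimulation the log2 value was -0.22 ± 0.075 in HZ (edgeR adjusted p = 0.0101), and it lost the threshold without unstimulated HZ replicate 1 (adjusted p = 0.0581) or stimulated HZ replicate 2 (adjusted p = 0.15). In WT it was -0.066 (edgeR adjusted p = 0.505) and in KO -0.14 (edgeR adjusted p = 0.16). Under library totals all 3 passed, at -0.37, -0.45 and -0.43 in WT, HZ and KO (adjusted p = 2.44e-05, 1.03e-06 and 6.04e-06). The gene's span overlaps that of *Polg2* in the RefSeq annotation, and since it is not stated whether counting used strand, reads of the 2 genes cannot be told apart where they overlap.

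*Siglecf* was detected at a few reads per library, so its values carry a wide counting error. It had 38 and 20 counts in unstimulated WT, 15 and 30 in HZ, with 5 and 3 in KO. After stimulation it had 106 and 80 counts in WT, 43 and 73 in HZ, with 55 and 64 in KO. Every stimulated library was above every unstimulated one, and both unstimulated KO libraries were below the others. From summed counts scaled to effective library size, the stimulated level was 3.67-fold the unstimulated one in WT (95% exact interval 2.72 to 5.02), 2.8-fold in HZ (1.97 to 4.04) and 19.2-fold in KO (9.42 to 45.4). Unstimulated KO was at 0.129 of WT (95% exact interval 0.0531 to 0.271). These intervals cover counting error only. The model across all genes gave log2 fold changes on stimulation of 1.86 ± 0.42 (SE) in WT, 1.49 ± 0.45 in HZ and 4.21 ± 0.58 in KO (edgeR adjusted p = 0.000259, 0.00326 and 4.16e-08). The log2 difference of unstimulated KO from WT was -2.92 ± 0.63 (edgeR adjusted p = 0.000135). Over the other settings with all libraries kept it ranged from -2.98 to -0.369, and it did not pass in 1 of them. In stimulated libraries the differences from WT were -0.57 ± 0.39 in KO (edgeR adjusted p = 0.258) and -0.73 ± 0.39 in HZ (edgeR adjusted p = 0.15). The rise in HZ lost the threshold without unstimulated HZ replicate 1 (adjusted p = 0.0816) or stimulated HZ replicate 2 (adjusted p = 0.123). The eosinophil list, from a cell type known for *Siglecf*, summed to 2.43 to 4.89 CPM among unstimulated libraries and 1.43 to 2.83 CPM among stimulated ones, with its defining gene *Prg2* at 0 to 4 counts.

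*Siglecf* was the only one of the 10 genes whose group means spanned more than 1 on the scale of log2(CPM + 0.5). The added 0.5 compresses low values, so that this span was 2.56 for a 28.7-fold difference in CPM, and it bears on the likeness given next. Over the 12 libraries and 8383 genes of at least 10 CPM, the genes whose log2 level ran closest to it, each centred on its own mean, were *Cd33*, *Fermt2* and *Efnb2*. Their root mean square differences from *Siglecf* were 0.289, 0.29 and 0.313, beside 0.888 for the spread of *Siglecf* about its own mean. *Cd33*, which encodes another sialic acid-binding ITIM receptor, was far better covered. Its mean was 155 ± 5.86 CPM (SD, n = 2) in unstimulated WT, 129.8 ± 3 in HZ and 90.5 ± 0.689 in KO, and 414 ± 7.32, 273 ± 0.0532 and 337 ± 1.82 CPM after stimulation. It rose by 1.42 in WT, 1.07 in HZ and 1.90 in KO on the log2 scale (edgeR adjusted p = 4.18e-35, 7.52e-30 and 9.76e-40). In unstimulated KO it was below WT by a log2 difference of -0.78 ± 0.037 (edgeR adjusted p = 5.22e-23). In the fitted model, the changes of *Siglecf* in KO were larger than these, at 4.21 on stimulation and -2.92 against WT.

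*Cd200r3*, the DAP12-coupled accessory receptor of mast cells and basophils, responded in opposite directions by label under TMM scaling. It had 591 and 595 CPM in unstimulated WT, 667 and 666 in HZ, with 461 and 464 in KO. It had 516 and 515 CPM in stimulated WT, 454 and 461 in HZ, with 510.4 and 501 in KO. The labels were far apart before antigen, while after it all 6 libraries lay between 454 and 516 CPM. The log2 fold change was -0.20 ± 0.027 in WT, -0.54 ± 0.027 in HZ and 0.13 ± 0.027 in KO (edgeR adjusted p = 2.15e-08, 1.47e-22 and 0.000121), and the value in KO was -0.16 under library totals. Unstimulated KO was below WT by a log2 difference of -0.36 ± 0.027 (edgeR adjusted p = 1.22e-15), and stimulated KO by -0.027 ± 0.027 (edgeR adjusted p = 0.466). Its adaptor gene *Tyrobp* was lower than in WT by a log2 difference of -0.83 ± 0.039 in unstimulated KO and -0.98 ± 0.039 in stimulated HZ (edgeR adjusted p = 2.57e-23 and 1.35e-25). Both labels were below WT in both states. Mean *Tyrobp* was 249, 185 and 140 CPM in unstimulated WT, HZ and KO, and 271, 137 and 149 CPM in stimulated libraries.

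The phosphatase genes were both expressed at a high level but differed in their response. *Ptpn6* (SHP-1) had 176 and 170.0 CPM in unstimulated WT, 236 and 251 in HZ, with 226 and 232 in KO. It had 229.5 and 232 CPM in stimulated WT, 269 and 277 in HZ, with 310.5 and 301 in KO. Both unstimulated WT libraries were below the other 10, and KO was the highest label after antigen. KO was above WT by nearly the same amount before and after stimulation, 0.40 ± 0.035 and 0.41 ± 0.035 on the log2 scale (edgeR adjusted p = 1.58e-13 and 1.05e-13), and *Ptpn6* rose on stimulation by 0.41 ± 0.036 in WT and 0.42 ± 0.035 in KO (edgeR adjusted p = 1e-13 and 3.43e-14). Under library totals these rises were 0.10 and 0.13 (adjusted p = 0.00845 and 0.00123). In HZ it rose by 0.17 ± 0.035 (edgeR adjusted p = 5.48e-05) under TMM, and its value under library totals was -0.066 (adjusted p = 0.0856). HZ was above WT by 0.49 ± 0.036 before and 0.24 ± 0.035 after antigen (edgeR adjusted p = 1.78e-16 and 1.75e-07). *Inpp5d* (SHIP-1) had 1073 and 1073 CPM in unstimulated WT, 1282 and 1262 in HZ, with 1089 and 1108 in KO. It had 1074 and 1063 CPM in stimulated WT, 1043 and 1013 in HZ, with 1148 and 1144 in KO. Apart from the unstimulated HZ libraries, all libraries lay within 1013 to 1148 CPM. On stimulation *Inpp5d* had a log2 fold change of -0.006 in WT (edgeR adjusted p = 0.864) and fell in HZ by 0.31 ± 0.024 (edgeR adjusted p = 1.58e-15). In KO its log2 fold change of 0.061 ± 0.024 (edgeR adjusted p = 0.0386) was -0.23 under library totals and lost the threshold without any 1 of the 4 KO libraries (adjusted p of 0.0562 to 0.244). Their relatives *Ptpn11* (SHP-2) and *Inppl1* (SHIP-2) showed log2 differences between unstimulated KO and WT of 0.061 and 0.15 (edgeR adjusted p = 0.275 and 0.0543).

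The genotype labels were compared within each state to find where receptor levels differ with *Elk4* label. Before antigen, KO libraries had more *Ptpn6* and *Cd300a* mRNA than WT and less *Fcgr2b*, *Cd200r3*, *Milr1*, *Pirb*, *Lilrb4a* and *Siglecf*. HZ libraries did not lie between WT and KO, since 8 of the 10 genes were higher in HZ than in WT and 10 of 10 were lower in KO than in HZ. After antigen the position of HZ was turned round, with *Fcgr2b*, *Pirb*, *Milr1*, *Cd200r3* and *Lilrb4a* below WT and 8 of the 10 genes above HZ in KO. In unstimulated libraries 8 of 10 genes passed between KO and WT (2 higher, 6 lower), where 44.6% of all genes passed, 22.9% higher and 21.7% lower. Between unstimulated HZ and WT, 8 passed and were higher, where 51.4% of all genes passed, 25.4% higher and 26% lower. Between unstimulated KO and HZ, 10 passed and were lower, where 45.2% of all genes passed and 21.8% were lower. In stimulated libraries 8 passed between KO and WT (5 higher, 3 lower), where 40.4% of all genes passed, 21.2% higher and 19.2% lower, and 7 between HZ and WT (2 higher, 5 lower), where 34.9% passed, 18.4% higher and 16.5% lower. Between stimulated KO and HZ, 8 passed and were higher, where 24.9% of all genes passed and 12.9% were higher. These comparisons share libraries, and the 10 genes are not independent of each other.

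With a limit of 1.5-fold added, *Siglecf* in unstimulated KO against WT and against HZ was the only one of the 10 genes. Of all genes, 12.8% passed with this limit between unstimulated KO and WT (4.96% higher and 7.81% lower), 16.9% between HZ and WT (7.63% and 9.29%) and 9.72% between KO and HZ (4.83% and 4.89%). In stimulated libraries these shares were 12.8% (5.44% and 7.32%), 8.01% (3.56% and 4.45%) and 5.41% (1.81% and 3.6%). The median log2 difference of the 10 genes was -0.17 for unstimulated KO against WT, 0.17 for HZ against WT and -0.26 for KO against HZ, beside 0.018, 0.0018 and -0.0014 over all genes. In stimulated libraries it was 0.01, -0.12 and 0.16, beside 0.021, 0.023 and -0.0022. The higher level in unstimulated HZ was shared by the sum of the mast cell marker list, at 58840 to 60350 CPM there against 49290 to 50360 in WT and 53600 to 54690 in KO. That sum is largely *Cpa3*, *Cma1* and *Tpsb2*. Mean *Kit* was 4912 CPM in HZ against 4952 in WT, *Hdc* 109 against 126, *Mitf* 146 against 154 and *Mrgprb2* 31.6 against 34.6. The other tested markers of the list were higher in HZ. In unstimulated HZ the receptor chain genes *Fcer1a* and *Ms4a2* were above WT by 0.27 and 0.24 on the log2 scale (edgeR adjusted p = 6.67e-16 and 2.22e-12). *Elk4* itself was above WT there by 0.24 (edgeR adjusted p = 0.000484). The activation marker gene *Cd69* was below WT in unstimulated HZ by a log2 difference of -1.30 ± 0.027 (edgeR adjusted p = 3.46e-37). The part of these in the receptor levels was not tested. Among the smallest differences, *Fcgr2b* in unstimulated HZ against WT (0.16, edgeR adjusted p = 0.00944) lost the threshold under library totals (adjusted p = 0.076), and *Ptpn6* in unstimulated KO against HZ (-0.087, edgeR adjusted p = 0.0383) did so as well (adjusted p = 0.163).

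**Figure D4:**
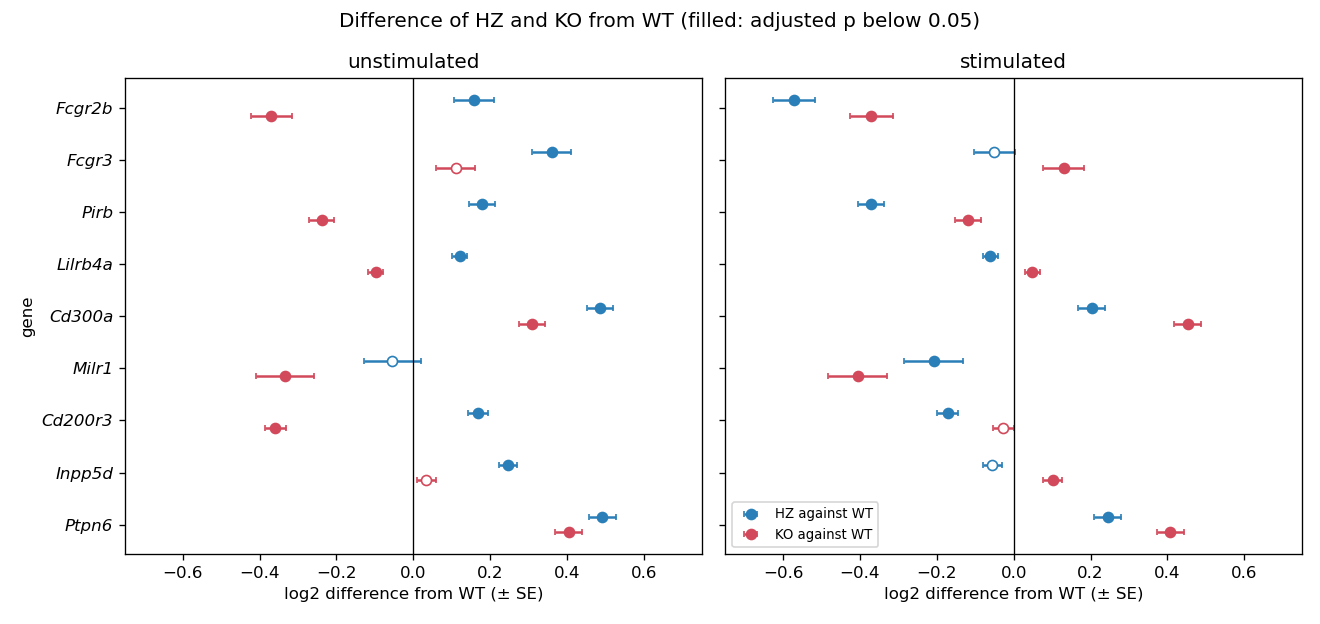
Log2 difference of HZ (blue) and KO (red) from WT with its standard error (horizontal axis) for the 9 genes other than *Siglecf*, in unstimulated and in stimulated libraries, filled where the edgeR adjusted p is below 0.05. With filled points in both panels, KO is below WT for *Fcgr2b* (-0.37), *Milr1* (-0.33 and -0.41) and *Pirb* (-0.24 and -0.12). It is likewise above WT for *Cd300a* (0.31 and 0.45) and *Ptpn6* (0.40 and 0.41). HZ crosses from above WT to below it for *Fcgr2b*, *Pirb*, *Lilrb4a* and *Cd200r3*. It also crosses for *Fcgr3* (-0.051) and *Inpp5d* (-0.055), whose points in the stimulated panel are open.

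The response to stimulation was then compared between labels as an interaction in the same model. Relative to WT, libraries labelled KO had a larger log2 fold change for *Cd200r3*, *Lilrb4a* and *Siglecf*, and those labelled HZ had a lower one for 8 of the 10 genes. For KO, 3 of 10 genes passed, all with a higher value than WT, where 9.27% of all genes passed and 5.44% were higher. The difference was 0.33 ± 0.039 for *Cd200r3* (edgeR adjusted p = 6.66e-09) and 0.15 ± 0.028 for *Lilrb4a* (edgeR adjusted p = 0.000185). *Siglecf* gave 2.35 ± 0.76 (edgeR adjusted p = 0.0398), and this lost the threshold in 7 of 8 fits that left out 1 library (adjusted p of 0.0525 to 0.229), all but the one without unstimulated WT replicate 2. With all libraries kept, the difference of *Siglecf* for KO ranged from 0.107 to 2.39 over the other settings and did not pass in every one. For HZ, 8 of 10 genes passed with a lower value than WT, where 38.5% of all genes passed and 18.6% were lower. *Fcgr2b* had the largest of these differences, -0.73 ± 0.076, and *Pirb* followed with -0.55 ± 0.048 (edgeR adjusted p = 4.17e-11 and 1.61e-13). *Fcgr2b* was also the only one past 1.5-fold. Of the remaining genes, *Milr1* gave -0.15 ± 0.11 (edgeR adjusted p = 0.269) and *Siglecf* -0.38 ± 0.62 (edgeR adjusted p = 0.681). Library totals moved the interaction of all genes by 0.0195 for KO and 0.0766 for HZ, and no direction of the 11 differences that passed changed with it. The KO and HZ interactions share the WT libraries.

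Related genes of the pathway, in lists drawn up by function, gave a wider view of the same signals. Of 23 other inhibitory receptors, 20 were in the table and 15 were tested. On stimulation 8 rose and 0 fell in WT, 7 rose and 4 fell in HZ and 11 rose and 0 fell in KO, with median log2 values of 0.26, 0.18 and 0.28. Over all genes 45.3% passed in WT (22.4% higher and 22.9% lower), 64.4% in HZ (32.9% and 31.6%) and 40.8% in KO (20.4% and 20.5%), with medians of -0.013, -0.0048 and -0.0068. Under library totals 5 rose and 3 fell in WT, 5 rose and 6 fell in HZ and 6 rose and 3 fell in KO, where 67.5%, 68.4% and 66.8% of all genes passed. The medians were then -0.052, -0.056 and -0.011 beside -0.32, -0.24 and -0.30 over all genes. *Lilr4b*, whose product lacks the ITIM, is among these 15 and rose in each label under TMM. The largest rise in all 3 labels, setting aside genes whose mean count was under 100, was that of *Havcr2*, which encodes TIM-3, with log2 fold changes of 2.13 ± 0.03, 1.62 ± 0.029 and 2.44 ± 0.03 (edgeR adjusted p = 1.64e-45, 6.73e-41 and 5.71e-48). Between unstimulated KO and WT, 3 of the 15 were higher and 7 lower, where 44.6% of all genes passed, 22.9% higher and 21.7% lower. *Cd244a*, which encodes the SLAM-family receptor 2B4, was lower in KO by a log2 difference of -0.93 ± 0.041 (edgeR adjusted p = 3.25e-24). HZ against WT gave 7 higher and 5 lower in unstimulated libraries, where 51.4% of all genes passed, 25.4% higher and 26% lower. The response of HZ was lower than that of WT in 8 of 15, where 38.5% of all genes passed and 18.6% were lower.

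Of 24 activating counterparts and adaptors, 17 were tested. On stimulation 8 rose and 3 fell in WT, 7 rose and 9 fell in HZ and 5 rose and 2 fell in KO. Of all genes 45.3%, 64.4% and 40.8% passed, with the shares higher and lower given above. Under library totals 2 rose and 9 fell in WT, 4 rose and 9 fell in HZ and 2 rose and 10 fell in KO, where 67.5%, 68.4% and 66.8% of all genes passed. *Cd300lb*, the activating relative of *Cd300a*, fell by 1.59 in HZ on the log2 scale from a level that was above WT by 1.16 (edgeR adjusted p = 5.87e-34 and 1.98e-28). *Cd300c2*, a further activating member of that family, was above WT in KO by 1.09 ± 0.097 before and 1.41 ± 0.1 after antigen (edgeR adjusted p = 2.53e-13 and 3.77e-16). Mean *Cd300c2* in HZ was also above WT, at 22.0 against 12.1 CPM before antigen and 18.6 against 9.89 CPM after it. Between unstimulated KO and WT, 9 of the 17 were higher and 3 lower, where 44.6% of all genes passed, 22.9% higher and 21.7% lower. The signalling chain gene *Fcer1g* was among the higher ones, by 0.25 ± 0.034 (edgeR adjusted p = 2.64e-08).

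Of 24 other negative effectors of signalling, 21 were tested, and on stimulation 10 rose and 5 fell in WT, 6 rose and 11 fell in HZ and 7 rose and 2 fell in KO, beside the same shares of all genes. Under library totals 4 rose and 15 fell in WT, 3 rose and 14 fell in HZ and 3 rose and 15 fell in KO, where 67.5%, 68.4% and 66.8% of all genes passed. The 2 genes that rose past 2-fold in WT and in HZ were the tyrosine phosphatase gene *Ptpn22*, with log2 fold changes of 1.93 ± 0.087 in WT, 1.69 ± 0.083 in HZ and 2.43 ± 0.083 in KO (edgeR adjusted p = 2.89e-24, 4.97e-23 and 4.55e-29), and *Rabgef1*, a regulator of endocytosis known to restrain FcεRI signalling, with 1.68 ± 0.035, 1.78 ± 0.036 and 1.87 ± 0.035 (edgeR adjusted p = 6.47e-38, 1.2e-38 and 3.9e-40). In HZ 2 genes also fell past 2-fold, among them the diacylglycerol kinase gene *Dgka*, by 1.14 ± 0.12 on the log2 scale (edgeR adjusted p = 4.88e-11). In unstimulated libraries 14 of the 21 were higher and 1 lower in HZ than in WT, beside 25.4% and 26% of all genes. In KO 2 were higher and 15 lower than in HZ, beside 23.4% and 21.8% of all genes. The median log2 differences were 0.29 and -0.25, where 51.4% and 45.2% of all genes passed with medians of 0.0018 and -0.0014. The adaptor gene *Sla* was the leading one in HZ, above WT by 0.78 ± 0.029 (edgeR adjusted p = 1.63e-27). *Lyn*, the kinase that phosphorylates ITAMs and ITIMs alike, was above WT in unstimulated HZ by 0.25 ± 0.036 (edgeR adjusted p = 5.54e-08), and its log2 difference from WT was -0.0014 in unstimulated KO (edgeR adjusted p = 0.982).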

How the data were processed

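RNA of BMMCs was sequenced on an Illumina instrument after a VAHTS Universal V6 library kit. The authors deposited raw counts per gene, without normalization, and FPKM values for the same genes, and replicates were not pooled. The submitters' processing notes name fastp, HISAT2, HTSeq and build GRCm39, while versions, annotation, strand setting and multi-mapping rule are not given in the sources used here. The deposited FPKM equalled counts divided by gene length and library total in 9192 genes checked, to a relative spread of at most 7.3e-09. FPKM was used to compare levels between genes.

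The raw counts went into edgeR 4.0.16 under R 4.3.3. After filterByExpr at its defaults and TMM scaling, 1 quasi-likelihood model was fitted over all 12 libraries with a coefficient per group (6 residual and 38.9 prior degrees of freedom, biological coefficient of variation 4.01%). Tests were two-sided, with Benjamini-Hochberg adjustment over 12208 genes, and a gene passed at an adjusted p below 0.05. Fold limits of 2 for stimulation and 1.5 for genotype were counted beside this. Fold changes used a prior count of 0.125. CPM values are TMM-scaled. Replicates of a group differed by more than sampling noise (chi-square per degree of freedom 2.94 to 5.16). At these library totals, standard errors of log2 differences between groups ran from 0.02 for *Lilrb4a* to 0.078 for *Milr1*, and from 0.39 to 0.65 for *Siglecf*. The procedure was also run on simulated counts, whose outcome is not given here.

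Alternatives were DESeq2 1.42.0, its size factors, library totals, other filters, an adjusted p below 0.01, a fit of the groups compared alone, replicate blocks, leaving out 1 library, and limma 3.58.1 on log2(FPKM + 1) and log2(FPKM + 0.1). The lists were other inhibitory receptors, activating counterparts and adaptors, other negative effectors and cell type markers, matched by symbol. The 10 genes and the lists were chosen with earlier results of these data known. Besides the 10 genes, *Elk4*, *Fcer1a*, *Ms4a2*, *Fcer1g*, *Ptpn11*, *Inppl1* and *Lyn*, the text names up to 3 genes per list and comparison by size of change (1.5-fold or more, no overlap, and 100 counts or more as the mean of whichever group was higher), and genes whose log2 level over the 12 libraries was closest to *Siglecf*. *Lilr4b* and the marker genes were named as relatives or markers after their values were seen. Promoter sequences came from RefSeq (GRCm38.p6) and cover 9 of the 10 genes. Protein sequences were not used here.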

Additional observations from a re-analysis of the deposited data

Results flagged for a closer look

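The log2 response to antigen differed from that of WT in 11 cases by the interaction test of edgeR's quasi-likelihood model, each with an adjusted p below 0.05 over all genes tested, and this is what marked them for a closer look. In libraries labelled KO the response was larger by 0.33 for *Cd200r3* (edgeR adjusted p = 6.66e-09), by 2.35 for *Siglecf* (edgeR adjusted p = 0.0398) and by 0.15 for *Lilrb4a* (edgeR adjusted p = 0.000185). On stimulation *Cd200r3* fell in WT and rose in KO under TMM scaling, and its log2 fold change was negative in both labels under library totals. *Siglecf* rests on 8 counts in the unstimulated KO libraries. In libraries labelled HZ the log2 response was lower, with a difference of -0.34 for *Cd200r3* (edgeR adjusted p = 3.83e-10), -0.28 for *Cd300a* (edgeR adjusted p = 4.96e-06) and -0.73 for *Fcgr2b* (edgeR adjusted p = 4.17e-11). The differences were -0.41 for *Fcgr3* (edgeR adjusted p = 9.21e-06), -0.55 for *Pirb* (edgeR adjusted p = 1.61e-13) and -0.18 for *Lilrb4a* (edgeR adjusted p = 4.62e-07). The phosphatase genes gave -0.30 for *Inpp5d* (edgeR adjusted p = 3.96e-10) and -0.25 for *Ptpn6* (edgeR adjusted p = 6.81e-05). In the same interaction 38.5% of all genes passed for HZ (18.6% lower) and 9.27% for KO (5.44% higher). The 8 differences of HZ held the threshold in every fit that left out 1 library.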

How the results depend on the processing

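The number of the 10 genes that passed moved by over 1.5 times in few settings. With fold limits of 2 for stimulation and 1.5 for labels it was 1 for stimulation in WT, HZ and KO, 1 for unstimulated KO against WT and against HZ, and 0 for unstimulated HZ against WT and for the 3 stimulated comparisons of labels by edgeR, where 8, 8, 7 and 8 passed without the limits. For stimulation in WT it was 10 in place of 6 under library totals and in all 3 fits of limma on FPKM, which is scaled by library totals. For stimulated KO against WT it was 5 in place of 8 with limma on log2(FPKM + 1) without a filter, and the cause was not tested. Leaving out 1 library gave 6 to 7 for stimulation in WT, 8 to 10 in HZ and 5 to 6 in KO, 8 to 9, 7 to 8 and 9 to 10 for unstimulated KO against WT, HZ against WT and KO against HZ, and 5 to 7, 5 to 6 and 6 to 9 for the same in stimulated libraries. The lowest, 5 for stimulated KO against WT, came without stimulated WT replicate 2 or KO replicate 1. The interaction gave 2 to 3 for KO and 8 for HZ. Among log2 values, these changed sign. On stimulation in KO under library totals, limma on log2(FPKM + 1) with and without a filter, and on log2(FPKM + 0.1), *Cd200r3* was -0.159, -0.157 and -0.159, *Cd300a* -0.287, -0.284 and -0.287, *Pirb* -0.176, -0.174 and -0.176, and *Inpp5d* -0.228, -0.227 and -0.228. In HZ, *Ptpn6* was -0.0662, -0.065 and -0.0656 in these settings. *Cd300a* in KO had not passed under TMM, and nor had the values that follow. On stimulation in WT, *Pirb* and *Inpp5d* were 0.00884 and 0.00894 with DESeq2, 0.00883 and 0.00894 with its size factors, and 0.00178 and 0.00188 in a fit of the groups compared alone. For the response of KO against WT, *Fcgr2b* was 0.0188 under library totals, 0.000351 without a filter, 0.0221 with limma on log2(FPKM + 1) and 0.0205 on log2(FPKM + 0.1), and *Ptpn6* was -0.00356 in a fit of the groups compared alone. With 1 library left out, stimulation in WT ranged from -0.0346 to 0.0361 for *Pirb* and -0.0118 to 0.00625 for *Inpp5d*, and stimulation in KO from -0.0239 to 0.0269 for *Cd300a*. The response of KO against WT ranged from -0.0577 to 0.0578 for *Fcgr2b*, -0.0495 to 0.0636 for *Fcgr3* and -0.0242 to 0.0235 for *Ptpn6*. *Siglecf* ranged from -0.986 to 0.223 for unstimulated HZ against WT, -0.234 to 0.678 for stimulated KO against HZ and -0.954 to 0.239 for the response of HZ against WT. Of 1119 values of single genes with all libraries kept, 1003 had the direction and the side of the threshold reported, 42 gained and 42 lost the threshold and 32 changed sign. Of 520 with 1 library left out, 455 stayed, 5 gained, 39 lost it and 21 changed sign. Deviations of equal replicate numbers correlated over 0.1 in 1 of 15 pairs of groups (r from -0.0614 to 0.106). Between the unstimulated and stimulated libraries of 1 label, where equal numbers could mean 1 culture, r was -0.0245 in WT, 0.106 in HZ and 0.0108 in KO. Libraries of 1 culture need not deviate alike, so this check cannot decide whether equal numbers are pairs. With a replicate block the counts were 7, 10 and 7 for stimulation in WT, HZ and KO, 8, 8 and 10 for unstimulated KO against WT, HZ against WT and KO against HZ, 8, 7 and 8 in stimulated libraries, and 4 and 8 for the interactions. The block moved *Fcgr2b* on stimulation in WT to an adjusted p of 0.0493 and *Cd300a* in the response of KO against WT to 0.0438. The counts of the lists under library totals were added after seeing the data. With at least 10 counts in every library required, *Siglecf* was left out. Taken as counts rather than FPKM, the ratio of *Fcgr2b* to *Fcgr3* was 0.987 in unstimulated WT and 0.707 in KO, which differs by the gene lengths only. With 2 libraries a group, no library can be tested as deviating, and *Siglecf*, at 3 to 106 counts, was the gene limited by depth.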
